A study of Homo sapiens with 8 samples.

Results

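The genes described here take iron into human liver cells, bind or carry it in plasma, store it, export it and set the hormone hepcidin, and they were followed in liver cell cultures grown in 3 formats. They were chosen by name: TF, TFRC, TFR2, FTH1, FTL, HAMP, SLC40A1, HPX, CP and SLC11A2, with every array probe whose platform annotation carries 1 of these symbols. Of the 10 genes 9 had a probe, 11 probes in all among 47323 on the array. FTL and SLC40A1 had 2 probes each, and FTH1, the ferritin heavy chain gene, was not analysed here. All 9 genes passed the filter on dim probes and entered the test with 11031 genes in all.

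Each of 8 cultures was read on 1 Illumina HumanHT-12 v4 bead array, a 1-colour array that reports a mean bead intensity per probe. Monolayer culture (2D) gave 3 arrays, static culture in a microporous polycarbonate scaffold (static 3D) gave 3, and the same scaffold in a pump-driven bioreactor (labelled 3DBR, here perfused 3D) gave 2. All cultures ran for 5 days. Fewer cells were seeded in monolayers than in scaffolds, so format and seeded number change together against 2D. No genotype or drug distinguishes the groups. The sample labels name the hepatocarcinoma line HepG2, whereas the series' design text describes hepatocytes of 3 donors, and the labels tie no array to a donor. The labels do not say whether the arrays of a group came from separate cell preparations, so the p-values measure only the spread between these arrays.

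Liver cells run the iron supply of the body. Transferrin, encoded by TF, carries iron in plasma, and the transferrin receptor TFRC brings it into cells, while TFR2 acts in hepatocytes mainly as a sensor of iron-loaded transferrin. Hepcidin, encoded by HAMP, is secreted by hepatocytes when iron is plentiful or inflammation is present, and it binds ferroportin (SLC40A1), the cell's iron exporter, and removes it from the membrane. Iron-regulatory proteins bind a short hairpin in several of these mRNAs, the iron-responsive element, which blocks translation of ferritin and ferroportin and protects the TFRC mRNA from decay when iron is scarce.

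Sequence at these genes shows the kinds of control that meet there, and 3 upstream stretches and 1 transcribed stretch are shown for that reason. They come from RefSeq windows on GRCh38.p14, which matched 7 of the 10 genes. Each upstream stretch holds the 250 bases before an annotated start, 5′ to 3′ on the gene's strand. The capitals mark matches on either strand to ACGTG (the core of the hypoxia response element), TTCNNNGAA (a site for STAT factors, which inflammation activates) and GGCGCC (the core of the element through which bone morphogenetic proteins act). The last 2 motifs read the same on both strands. HAMP is shown as the hormone gene at chr19:35282278-35282527, plus strand. TFRC is shown at chr3:196082091-196082340, minus strand. TF is shown at the downstream of its 2 listed starts, chr3:133746143-133746392, plus strand. The FTL stretch is 30 transcribed bases at chr19:48965329-48965358, plus strand, with the loop CAGTGN of the iron-responsive element in capitals.
HAMP: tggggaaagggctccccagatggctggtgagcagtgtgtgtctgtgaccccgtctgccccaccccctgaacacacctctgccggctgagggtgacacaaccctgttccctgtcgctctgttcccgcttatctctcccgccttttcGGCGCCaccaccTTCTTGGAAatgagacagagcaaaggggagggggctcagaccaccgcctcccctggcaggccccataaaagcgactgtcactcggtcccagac
TFRC: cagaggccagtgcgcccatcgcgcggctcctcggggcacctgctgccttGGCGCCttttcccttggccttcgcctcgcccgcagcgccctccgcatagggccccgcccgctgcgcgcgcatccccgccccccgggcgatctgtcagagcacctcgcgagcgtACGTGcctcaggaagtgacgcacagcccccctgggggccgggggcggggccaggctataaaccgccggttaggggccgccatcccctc
TF: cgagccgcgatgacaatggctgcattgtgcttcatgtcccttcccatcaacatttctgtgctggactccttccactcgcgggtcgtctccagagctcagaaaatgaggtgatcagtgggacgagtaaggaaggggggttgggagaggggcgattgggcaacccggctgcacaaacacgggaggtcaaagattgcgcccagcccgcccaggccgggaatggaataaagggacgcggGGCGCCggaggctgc
FTL: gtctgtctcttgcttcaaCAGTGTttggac

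In the HAMP stretch GGCGCC lay at -105 to -100 and the STAT match at -93 to -85 from the start. The ACGTG of TFRC lay at -88 to -84 and its GGCGCC at -201 to -196. In the TF stretch GGCGCC lay at -15 to -10. The loop of FTL lay at 39 to 44 in the transcript, HAMP had CAGTGG at 24 to 29, and the other members with a window, SLC40A1 among them, had no match in their first 50 transcribed bases. Such short letters are common: among 35116 windows, 18.5% held ACGTG in the upstream 250 bases, 16.4% held GGCGCC and 6.57% held the STAT match, while 6.36% held CAGTGN on the transcribed strand of the first 50 transcribed bases. The first TF start had GGCGCC at -157 to -152 and at -121 to -116, and FTL had CACGT, the reverse complement of ACGTG, at -11 to -7. HPX, SLC11A2 and SLC40A1 had none of the 3 upstream motifs in their windows. These matches are descriptions of the letters and not measured sites.

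Before the iron genes are compared, 2 arrays need naming. 2D replicate 1 and static 3D replicate 1 stood apart from the other 6. On them the mean of 18 Kupffer cell and macrophage markers was 6.84 and 7.01 on the log2 scale, against 8.69 to 9.92 elsewhere, with 6 and 4 of the 18 detected against 14 or 15. COL1A1, a collagen gene of stellate cells and fibroblasts, lay at 6.35 and 6.39 on them and between 10.96 and 12.24 elsewhere. The mean of 15 dividing cell markers went the other way, at 9.49 and 8.85 against 6.49 to 7.05. Macrophage and collagen genes at those levels go against a pure HepG2 culture on the other 6 arrays. ALB, the albumin gene of hepatocytes, lay between 15.62 and 15.78 on all 8. The 2 FTL probes held the same span of levels at ranks 1 to 6. Quantile normalisation fixes the level at such ranks, so ALB cannot show whether hepatocyte RNA was equal across arrays. The mean of 11 hepatocyte markers did vary. 2D replicate 1 had 10.96 and static 3D replicate 1 had 13.05, while the other 6 arrays had 12.36 to 13.74. The arrays lay on 2 chips, with the perfused pair beside static 3D replicate 1 on the first and the other 5 arrays on the second. The share of probes detected on an array ran from 29.7% to 34.3%.

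Static 3D against 2D asks what the scaffold changes without flow. The plasma iron carrier TF and the haem carrier HPX were 3.13-fold and 2.87-fold higher in static 3D, the ferroxidase gene CP 2.70-fold and the sensor gene TFR2 2.02-fold, while TFRC was at 0.760 of its 2D level. None of these differences passed the test. Limma called 0 of the 9 genes at an adjusted p under 0.05, where it called 0 of all 11031 (0%). At an unadjusted p under 0.05 there were 3 of 9, against 4.70% of all genes. Both TF and HPX were higher with no overlap between groups (2 of 9, against 4.96% of all genes), and TFRC was lower with none (1 of 9, against 5.18%). The log2 fold change was above 0 for 5 of 9, against 50.1% of all genes. Its median over the 9 was 0.07, beside 0.001 over all genes, and it turned to -0.12 with median scaling of the arrays (all genes -0.129) and to -0.05 with the authors' deposited values. Without the 2 arrays that stood apart 4 of 9 were higher and 2 lower with no overlap, against 15.9% and 20.5% of all genes, and the median was -0.11. In RNA from whole cultures, fewer cells of a type and less RNA per cell cannot be told apart.

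Perfused 3D against 2D changes scaffold, flow and seeded number together. The chip changes too, since no 2D array shared a chip with the perfused arrays. Blocked by chip, the chip effect in this comparison comes from the static arrays alone, through static 3D replicate 1. TF was 3.10-fold higher, TFR2 2.34-fold, CP 2.02-fold, HPX 1.88-fold and SLC40A1 1.60-fold. Limma called 0 of the 9, beside 1 of 11031 genes (0.00907%), the drug-metabolising enzyme gene CYP3A4, and 2 of 9 had an unadjusted p under 0.05, against 4.22% of all genes. TF, TFR2 and HPX were higher with no overlap (3 of 9, against 10.8% of all genes) and none was lower (against 10.1%). The median log2 fold change was 0.67, beside 0.008 over all genes, and 8 of 9 were above 0, against 50.8% of all genes. Without the 2 arrays that stood apart, 6 of 9 were above 0, the median was 0.31, and 3 of 9 were higher with no overlap, against 16.4% of all genes. This comparison and that of static 3D share the 3 arrays of 2D.

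Perfused against static 3D changes flow on the scaffold, and other things in part. Of the static arrays only static 3D replicate 1 shared a chip with the perfused arrays, and it was 1 of the 2 that stood apart. All 15 macrophage markers measured were higher in perfused 3D, against 50.2% of all genes, with 0 called. The part of chip and cell content in this comparison was not tested. SLC11A2 and SLC40A1 were 1.53-fold and 1.52-fold higher in perfused 3D, HPX was at 0.656 of its static level, and TF was nearly level at 0.991. Limma called 0 of the 9, beside 1 of 11031 genes (0.00907%), again CYP3A4, and 0 of 9 had an unadjusted p under 0.05, against 1.88% of all genes. SLC11A2, SLC40A1 and FTL were higher with no overlap (3 of 9, against 8.95% of all genes), and none was lower (against 8.31%). For FTL this holds for ranks only, since the deposited intensities overlapped (52593 and 61458 perfused, 53337, 53399 and 56990 static). The log2 fold change was above 0 for 6 of 9, against 50.2% of all genes, with a median of 0.21 beside 0.002 over all genes. Without perfused replicate 1 the median turned to -0.04 with 4 of 9 above 0, without perfused replicate 2 it was 0.09, without static 3D replicate 1 it was 0.11, and with median scaling it was 0.35 (all genes 0.119). Blocked by chip, this comparison rests on 1 static array, static 3D replicate 1.

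**Figure D1:**
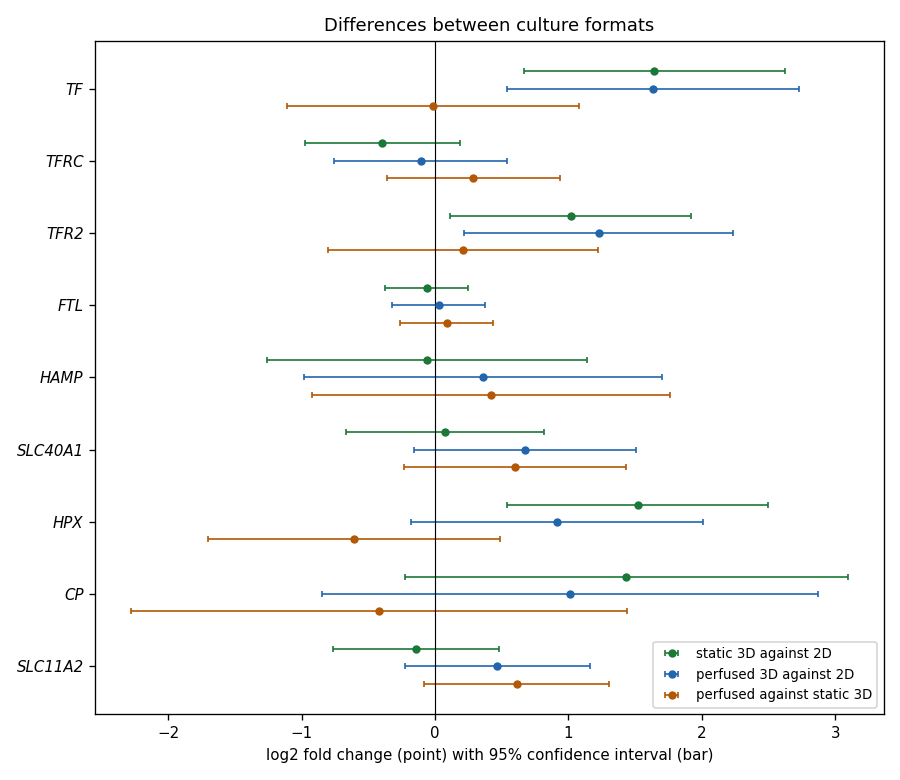
Log2 fold changes (x axis) of the 9 iron handling genes (y axis) in the 3 comparisons, shown as points with 95% confidence intervals as bars. The intervals of TF and TFR2 lie above 0 in both comparisons with 2D and that of HPX does so for static 3D, before any adjustment for the 11031 genes tested.

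Transferrin showed the clearest separation between monolayer and scaffold among the 9 genes. TF (chromosome 3, 133661998 to 133796641) lay at 12.52, 14.21 and 13.53 in 2D, at 15.11, 14.48 and 15.60 in static 3D, and at 15.07 and 15.03 in perfused 3D. Every scaffold array was above every 2D array, and both perfused arrays lay inside the static range. In the deposited intensities the range was 7167 to 18759 units in 2D and 20840 to 55980 in static 3D, with 33477 and 34336 in perfused 3D. The group means were 13.42 ± 0.85 (SD, n = 3), 15.06 ± 0.56 (SD, n = 3) and 15.05 ± 0.03 (SD, n = 2). The log2 fold change over 2D was 1.64 in static 3D (SE 0.43, limma adjusted p = 0.940) and 1.63 in perfused 3D (SE 0.48, adjusted p = 0.964). By p TF was number 43 of 11031 genes in the static and number 74 in the perfused comparison. The difference between the scaffold formats was -0.01, with a 95% interval from -1.11 to 1.08. With chip as a block the 3 differences were 1.62, 1.56 and -0.06. Without both arrays that stood apart they were 1.20, 1.20 and 0.003.

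Hemopexin, encoded by HPX (chromosome 11, 6431049 to 6440987), binds free haem in plasma and delivers it to the liver. Its levels were 10.43, 11.49 and 12.03 in 2D, 12.90, 12.23 and 13.38 in static 3D, and 12.20 and 12.26 in perfused 3D. All 5 scaffold arrays exceeded all 2D arrays here too. The log2 fold change over 2D was 1.52 in static 3D (SE 0.43, adjusted p = 0.940) and 0.91 in perfused 3D (SE 0.48, adjusted p = 0.964). Without 2D replicate 1 these were 1.08 and 0.47. Perfused minus static 3D was -0.61 (SE 0.48, interval -1.70 to 0.49). Blocked by chip the differences were 1.49, 0.82 and -0.67.

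Ceruloplasmin, the copper protein that oxidises iron so that transferrin can bind it, is encoded by CP (chromosome 3, 149162414 to 149221829). CP lay at 6.70, 9.40 and 8.80 in 2D, at 8.56, 10.53 and 10.12 in static 3D, and at 9.44 and 9.20 in perfused 3D. It was not detected on 2D replicate 1 and was detected on the other 7 arrays. The groups overlapped in all 3 comparisons. CP had the widest range of the 9 genes, 3.82 on the log2 scale. Static 3D minus 2D was 1.43 (SE 0.73, adjusted p = 0.940), and 0.63 without 2D replicate 1. Perfused 3D minus 2D was 1.01 (SE 0.81, adjusted p = 0.964), and 0.21 without 2D replicate 1. With chip as a block these were 2.02 and 2.77, and without background correction 0.90 and 0.54. Perfused minus static 3D was -0.42 (SE 0.81), and 0.75 with chip as a block, where the only static array is static 3D replicate 1.

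The hepatocyte marker mean was lowest in 2D, as were TF and HPX. Limma called 0 of 11 markers against 2D, beside 0 (static) and 1 (perfused) of 11031 genes. In each scaffold format 10 of 11 were higher than in 2D and 1 lower, where 50.1% (static) and 50.8% (perfused) of all genes were higher. In each, 4 of 11 had an unadjusted p under 0.05 (limma), against 4.70% and 4.22% of all genes. With no overlap 3 and 6 were higher, against 4.96% and 10.8%, and 0 were lower. The mean of 11 such genes was 10.96, 12.92 and 12.36 in 2D, 13.05, 13.0 and 13.74 in static 3D, and 13.48 and 13.33 in perfused 3D. As for TF and HPX, all scaffold arrays lay above all 2D arrays and 2D replicate 1 was lowest. At least 10 of the 11 were detected on every array. The part of a general shift of hepatocyte genes in the differences of TF, HPX, CP and TFR2 was not tested.

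**Figure D2:**
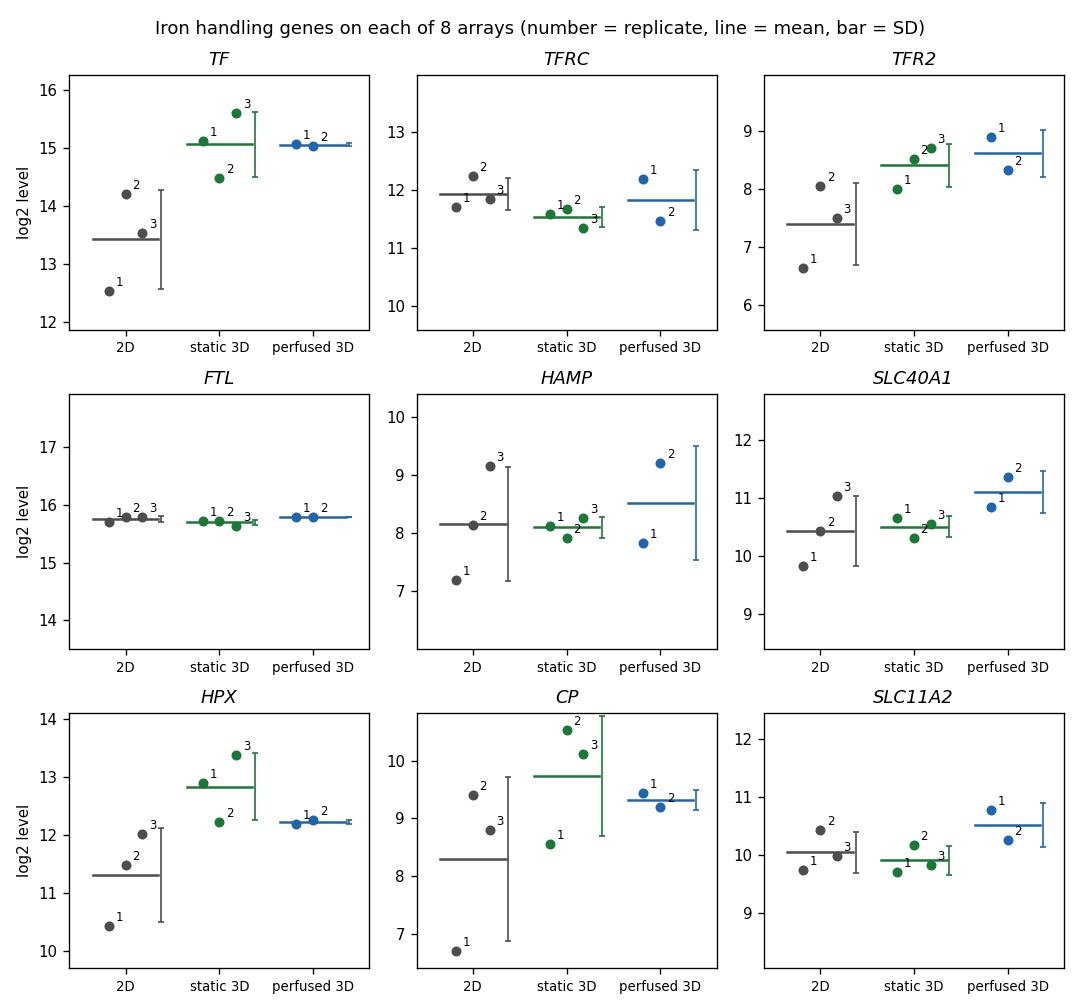
Normalised log2 level (y axis, all panels spanning the same number of units) of 9 iron handling genes on the 8 arrays by culture format (x axis), with replicate numbers beside the points, group means as lines and SDs as bars. For TF and HPX every scaffold array lies above every 2D array, while the HAMP arrays of 2D span the whole static 3D range.

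The receptors differed from each other. TFR2 (chromosome 7, 100620420 to 100641552), the hepatocyte sensor, lay at 6.63, 8.04 and 7.49 in 2D, at 7.99, 8.52 and 8.70 in static 3D, and at 8.90 and 8.33 in perfused 3D. It was not detected on 2D replicate 1. Perfused and 2D arrays did not overlap, and static and 2D arrays did so through 2D replicate 2 and static 3D replicate 1. The log2 fold change over 2D was 1.02 in static 3D (SE 0.40, adjusted p = 0.940) and 1.23 in perfused 3D (SE 0.44, adjusted p = 0.964). Without 2D replicate 1 it was 0.63 and 0.83, and with chip as a block 1.22 and 1.85. Without background correction it was 0.48 and 0.60, and with the authors' deposited values 0.64 and 0.86. Perfused minus static 3D was 0.21 (SE 0.44), and 0.62 with chip as a block.

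TFRC (chromosome 3, 196049284 to 196082090), the receptor that most cells use for uptake, lay at 11.71, 12.23 and 11.84 in 2D, at 11.59, 11.67 and 11.34 in static 3D, and at 12.19 and 11.46 in perfused 3D. All static arrays were below all 2D arrays and the perfused arrays lay 1 within the 2D range and 1 within the static range. Static 3D minus 2D was -0.40 (SE 0.25, adjusted p = 0.940, interval -0.98 to 0.18). Perfused 3D minus 2D was -0.11 (SE 0.28) and perfused minus static 3D 0.29 (SE 0.28). With chip as a block the 3 values were -0.42, -0.19 and 0.23. TFRC is known to be high in dividing cells. On the arrays with the highest dividing cell means, 2D replicate 1 and static 3D replicate 1, it was at 11.71 and 11.59, with 11.34 to 12.23 on the other 6, and the part of dividing cells in the TFRC levels was not tested.

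Hepcidin varied between arrays rather than between formats. HAMP (chromosome 19, 35282528 to 35285143) lay at 7.19, 8.14 and 9.16 in 2D, at 8.13, 7.91 and 8.27 in static 3D, and at 7.83 and 9.22 in perfused 3D. The 2D arrays alone covered all static values, and the highest 2D and the highest perfused array lay close together. The probe was detected on all 8 arrays, with deposited intensities of 371.5 to 893.1 units. Group means accounted for 7.36% of the spread of HAMP over the 8 arrays, the lowest of the 9 genes, beside a median of 22.7% over all genes tested. Static 3D minus 2D was -0.06 (SE 0.52, interval -1.26 to 1.14), and perfused 3D minus 2D was 0.36 (SE 0.59, interval -0.98 to 1.70). Without perfused replicate 2 the latter was -0.34, and without perfused replicate 1 it was 1.06. With chip as a block the differences were -0.07 and 0.32, and 0.40 for perfused minus static 3D, which was 0.42 (SE 0.59) without the block.

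Ferroportin, the target of hepcidin, followed a similar order of arrays. SLC40A1 (chromosome 2, 189560590 to 189580786) lay at 9.82, 10.44 and 11.04 in 2D, at 10.66, 10.30 and 10.55 in static 3D, and at 10.84 and 11.36 in perfused 3D. Its highest arrays were perfused replicate 2 and 2D replicate 3, as for HAMP, and its lowest was 2D replicate 1, again as for HAMP. Across the 8 arrays the 2 genes had a Pearson r of 0.884, given as a description of arrays that differ in more than format. Perfused 3D minus 2D was 0.67 (SE 0.36, adjusted p = 0.964) and perfused minus static 3D 0.60 (SE 0.36, adjusted p = 1), with both perfused arrays above all static ones. Without 2D replicate 1 the former was 0.37. Static 3D minus 2D was 0.07 (SE 0.33). With chip as a block the values were 0.44, 0.44 and -0.01 in that order. Without perfused replicate 2 the first 2 were 0.41 and 0.34. The second, dimmer SLC40A1 probe, detected on all arrays at 360.1 to 510.4 units, gave -0.10, -0.08 and -0.02 and so did not share the higher perfused level. Ferroportin is abundant in macrophages. On the arrays with few macrophage markers detected, SLC40A1 was at 9.82 (2D replicate 1, 6 of 18), the lowest of all 8, and at 10.66 (static 3D replicate 1, 4 of 18), the highest of the static arrays. The part of macrophage RNA in the SLC40A1 levels was not tested.

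Ferritin light chain, part of the shell that stores iron, was among the brightest signals of the arrays. FTL (chromosome 19, 48965309 to 48966879) was among the 6 brightest of 47323 probes on every array with both probes, and 1 of them was the brightest on 4 arrays, at 52152 to 61458 units. The log2 levels of the probe that stood for the gene ran from 15.64 to 15.78. Quantile normalisation fixes the level at such ranks, so the -0.06 (SE 0.14), 0.03 (SE 0.15) and 0.09 (SE 0.15) for static 3D minus 2D, perfused 3D minus 2D and perfused minus static 3D bear on rank only. The probe ranked 1 on both perfused arrays and 2, 2 and 5 on the static ones.

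SLC11A2 (chromosome 12, 50952263 to 51028886) encodes DMT1, which moves ferrous iron out of endosomes into the cytosol. It lay at 9.74, 10.44 and 9.99 in 2D, at 9.72, 10.19 and 9.83 in static 3D, and at 10.79 and 10.26 in perfused 3D. Both perfused arrays exceeded all static arrays, and 2D replicate 2 lay between them. Perfused minus static 3D was 0.61 (SE 0.30, adjusted p = 1, interval -0.09 to 1.31), 0.80 with chip as a block and 0.35 without perfused replicate 1. Perfused 3D minus 2D was 0.47 (SE 0.30, adjusted p = 0.964), 0.76 with chip as a block and 0.20 without perfused replicate 1. Static 3D minus 2D was -0.14 (SE 0.27), and -0.05 with chip as a block.

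**Figure D3:**
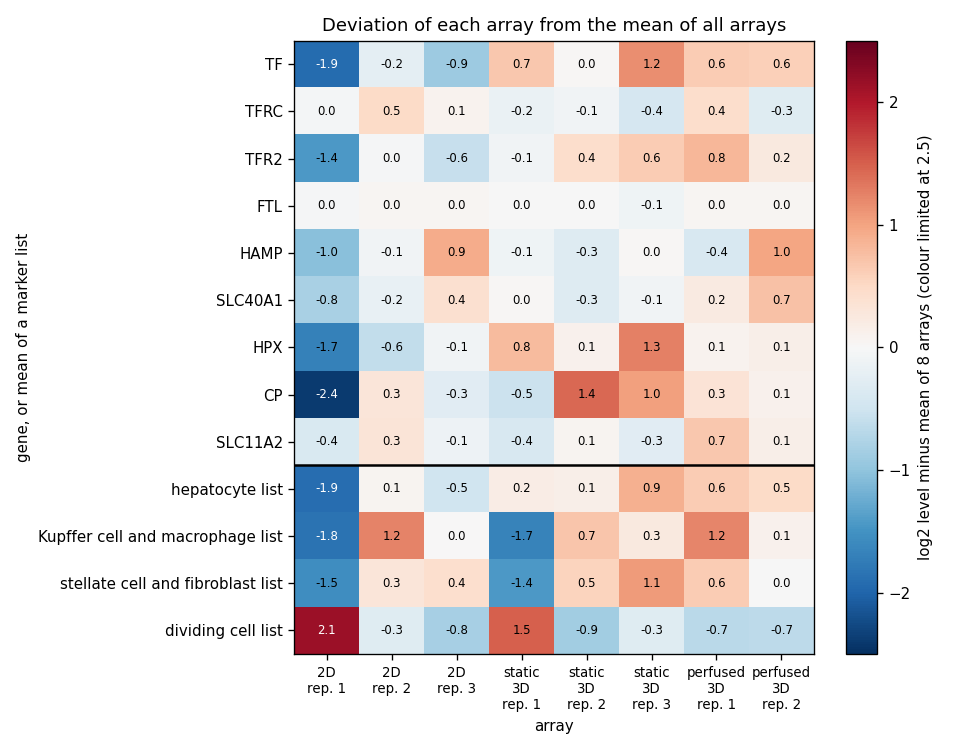
Log2 level minus the mean of the 8 arrays (colour and printed number) for 9 iron handling genes and the means of 4 marker lists (rows) on each array (columns). 2D replicate 1 is the lowest array for TF, TFR2, HAMP, SLC40A1, HPX, CP and the hepatocyte list, and only it and static 3D replicate 1 combine a low macrophage list with a high dividing cell list.

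Group means accounted for 70.9% of the spread of TF, 63.8% of HPX, 61.6% of TFR2, 47.8% of SLC11A2, 39.7% of SLC40A1, 34.5% of TFRC and 34.1% of CP. FTL is left out of this order because its level followed rank only. The plasma carriers TF and HPX and the sensor TFR2 thus lay at the top of this order and hepcidin at its foot. By Pearson r over the 8 arrays, the genes most like TF among all tested were the urea cycle enzyme gene CPS1 (0.981), the glyoxylate enzyme gene AGXT (0.972) and PGLYRP2 (0.971). For TFR2 they were JUN (0.991), the coagulation factor gene F12 (0.976) and AZGP1 (0.969), for HPX TAPBPL (0.955), ALDOC (0.950) and SIPA1 (0.945), and for CP NPIPA1 (0.986), RHBDF2 (0.983) and YIPF3 (0.968). HAMP was most like HPD (0.978), RHOQ (0.976) and SLC33A2 (0.965), and SLC40A1 most like TPRG1L (0.965), PITRM1 (0.956) and NINJ1 (0.954). TFRC was most like CAPG (0.983), ANKRD46 (0.968) and SPTBN4 (0.948), SLC11A2 most like FABP4 (0.977), DPEP2 (0.966) and B3GNT3 (0.965), and FTL most like KRTAP27-1 (0.988), ZDHHC24 (0.956) and CLCN5 (0.953). The highest of 11031 values is high by selection, and all points share the 2 arrays that stood apart. Within the group, TF was most like TFR2 (0.902) and HPX most like TF (0.895).

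The genes that regulate hepcidin showed no common direction. Of 24 listed, 19 were measured, and limma called 0 in each comparison. Static 3D was higher than 2D for 12 of 19 (median 0.11, and -0.06 with median scaling), perfused 3D higher than 2D for 11 (median 0.05) and higher than static 3D for 10 (median 0.04). Over all genes the shares above 0 were 50.1%, 50.8% and 50.2%. At an unadjusted p under 0.05 there were 1, 0 and 0 of 19, against 4.70%, 4.22% and 1.88% of all genes. SOCS3, a feedback inhibitor of STAT3 signalling, was at 7.14, 7.55 and 6.71 in 2D and 7.75, 8.42 and 7.82 in static 3D. The difference was 0.86 (SE 0.32) with no overlap, but SOCS3 was detected on 2 of 3 2D arrays, so its 2D level is in part near background. Perfused minus static 3D was -0.58 (SE 0.36). TMPRSS6, the protease that restrains hepcidin, differed by 1.69 (SE 1.00) between static 3D and 2D, where 2D replicate 1 was at 6.78 and the other arrays at 9.72 to 11.56. SMAD5, which carries the bone morphogenetic protein signal, differed by 0.59 (SE 0.33) there. In perfused 3D the signal's target ATOH8 was at -0.84 against 2D (SE 0.42) and the interleukin receptor subunit IL6ST at -0.46 (SE 0.25), each with no overlap, and CEBPA, a liver transcription factor, was at 0.84 (SE 0.54). Against static 3D the inhibitor SMAD6 was at -0.61 (SE 0.27) and CEBPA at 0.82 (SE 0.54). Without the 2 arrays that stood apart 9 of 19 were higher in each comparison.

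Iron transport, storage and sensor genes had 15 of 21 measured and 0 called in each comparison. The siderophore-binding gene LCN2 was at 11.05, 11.19 and 10.93 in 2D, 12.37, 11.98 and 11.94 in static 3D, and 12.02 and 13.50 in perfused 3D. All scaffold arrays were above all 2D arrays, by 1.03 in static 3D (SE 0.35, adjusted p = 0.940) and 1.70 in perfused 3D (SE 0.39, adjusted p = 0.934). Perfused minus static 3D was 0.67 (SE 0.39). STEAP1, of a family of metal reductases, was lower with no overlap in both scaffold formats, at -0.49 (SE 0.22) and -0.48 (SE 0.25). The zinc and iron importer SLC39A14 was at 0.60 (SE 0.31) in static 3D, and SLC25A28, which brings iron into mitochondria, at 0.51 (SE 0.27) in perfused 3D. FBXL5, which acts in protein ubiquitination, was at 0.30 (SE 0.29) in perfused against static 3D. NDFIP1, an adaptor of ubiquitin ligases, was detected on both perfused and 0 of 3 static arrays, with means of 7.0 and 6.45, and was at least 1.09-fold higher in perfused 3D (adjusted p = 1). Of the 15 genes 7, 10 and 11 were higher in the static, the perfused and the perfused against static comparison, with medians of -0.04, 0.21 and 0.07. The shares of all genes above 0 were 50.1%, 50.8% and 50.2%. At an unadjusted p under 0.05 there were 1, 1 and 0 of 15, against 4.70%, 4.22% and 1.88% of all genes.

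Haem genes showed no common direction. SLC48A1, a transporter that releases haem from endosomes and lysosomes, lay at 8.03 on both perfused arrays, at 7.30, 6.62 and 6.56 in static 3D and at 7.40, 7.33 and 7.24 in 2D, which made it higher by 1.21 (SE 0.28, adjusted p = 1) than in static 3D and by 0.71 (SE 0.28, adjusted p = 0.964) than in 2D, with no overlap. It was detected on 1 of 3 static arrays, so the static level is near background. HMOX1, the enzyme that opens haem and frees its iron, lay at 8.75, 10.29 and 11.43 in 2D, at 9.08, 10.48 and 11.0 in static 3D, and at 11.29 and 12.43 in perfused 3D. Its perfused minus static difference was 1.67 (SE 0.81, adjusted p = 1). HMOX1 was lowest on 2D replicate 1 and static 3D replicate 1, the arrays with the lowest macrophage means, and the part of macrophage RNA in it was not tested. HP, haptoglobin, which binds free haemoglobin, was at 9.52, 12.41 and 11.05 in 2D, 12.29, 14.13 and 14.30 in static 3D, and 13.35 and 12.62 in perfused 3D, with differences from 2D of 2.58 (SE 0.76) and 1.99 (SE 0.84). ABCB6, a porphyrin transporter, was higher than in 2D by 0.63 (SE 0.22) in static and 0.54 (SE 0.24) in perfused 3D. HMOX2, a second haem oxygenase, was detected on 0 of 3 static arrays and 2 of 3 2D arrays, with means of 6.15 and 7.04, and was at least 1.12-fold lower in static 3D (adjusted p = 0.940). CPOX, of haem synthesis, was detected on 0 of 2 perfused and 2 of 3 static arrays, with means of 6.36 and 7.28, and was at least 1.41-fold lower in perfused than in static 3D (adjusted p = 1). These bounds set the dim group at the lowest level detected on each array. Of 19 listed genes 16 were measured and 0 called, 9, 11 and 10 were higher in the static, the perfused and the perfused against static comparison (medians 0.05, which turned to -0.14 with median scaling, 0.21 and 0.05), and 3, 2 and 2 of 16 had an unadjusted p under 0.05, against 4.70%, 4.22% and 1.88% of all genes. The shares of all genes above 0 were 50.1%, 50.8% and 50.2%.

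Genes of iron-sulfur cluster assembly, the mitochondrial and cytosolic machinery that builds iron into enzymes, leaned lower in static 3D. Of 22 listed 18 were measured, 14 of them lower than in 2D, with a median of -0.24 beside 0.001 for all genes, and 5 were lower with no overlap, against 5.18% of all genes. Limma called 0, with 4 of 18 at an unadjusted p under 0.05, against 4.70% of all genes. ISCA1 lay at 8.37, 8.37 and 8.70 in 2D and 7.66, 7.11 and 7.68 in static 3D, a difference of -0.99 (SE 0.30, adjusted p = 0.940). NFU1 was at -0.76 (SE 0.25), and both genes act in late steps of cluster delivery. ISCA2, also among the lowest p, was detected on 0 of 3 static and 1 of 3 2D arrays, so its difference lies near background. Of the 18 genes 2 were detected on no array of at least 1 of these groups. Against 2D the perfused arrays gave a median of -0.05 with 12 of 18 lower and 0 called or past an unadjusted p of 0.05, NFU1 being at -0.62 (SE 0.28), ISCA1 at -0.45 (SE 0.34) and CIAO2A at -0.39 (SE 0.30). Against static 3D 14 of 18 were higher in perfused 3D (median 0.14), again with 0 called or past 0.05 unadjusted. The shares of all genes above 0 were 50.1%, 50.8% and 50.2% in the static, the perfused and the perfused against static comparison. ISCA2 was detected on 1 of 2 perfused and 0 of 3 static arrays, and ISCA1 was at 0.55 (SE 0.34). IBA57 was at 0.35 (SE 0.25) but was detected on 1 of 3 static arrays, so its static level is near background. Without both arrays that stood apart the static median was -0.11, with 12 of 17 lower and 6 lower with no overlap, against 20.5% of all genes.

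**Figure D4:**
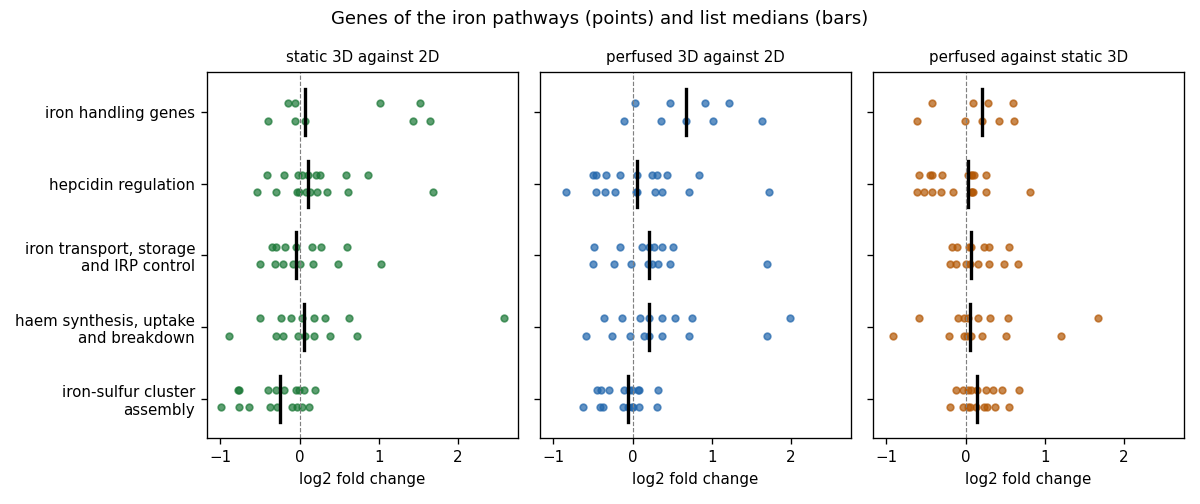
Log2 fold changes (x axis) of single genes (points) in the 9 iron handling genes and 4 iron pathway lists (y axis) for each of 3 comparisons (panels), with list medians as black bars. The iron-sulfur median lies at -0.24 in static 3D against 2D and the iron handling median at 0.67 in perfused 3D against 2D.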

How the data were processed

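Total RNA was amplified and biotin-labelled (Illumina TotalPrep) and read after Cy3-streptavidin staining, per the labels' protocols. Per the file headers, the authors deposited a mean bead intensity for each of 47323 probes on 8 arrays, not normalised between arrays, with a detection p-value per probe that moves in steps of 1 in 770. They also deposited a table of processed values, read here as log2 from its values, which served as an alternative; the sources used here do not give its normalisation. Background was corrected in limma 3.58.1 (R 4.3.3) by normexp with the background inferred from the detection p-values and an offset of 16, followed by quantile normalisation and log2. Probes with a detection p under 0.05 on at least 2 arrays (18556, of which 14115 carry 1 symbol) were kept, and the probe with the highest mean stood for a gene, giving 11031 genes. All 8 arrays entered 1 model of 3 group means without covariates (lmFit, eBayes with trend, two-sided, 8.45 total degrees of freedom), and Benjamini-Hochberg adjustment ran over all 11031 genes at 0.05. The fit was tested on simulated data. Array number limits precision: over all genes the SE had a median of 0.29 in the static comparison and 0.33 in both perfused ones.

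Replicate numbers follow accession order and are names only. Named genes were the members, the 3 pathway genes per list and comparison with the smallest p, the 3 genes most like each member, and the first measured markers of a list. The members, lists and the 2 arrays left out together were chosen with earlier results of these data known. Alternatives changed the normalisation, background, filter, probe choice, chip, weights, arrays and groups fitted. Counts of list members without single arrays were added after seeing the data.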

Additional observations from a re-analysis of the deposited data

How the results depend on the processing

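Limma called 0 of the iron handling genes measured, in each comparison and under each of 20 alternatives: TFR2 and CP were not tested where probes had to be detected on all 8 arrays. Of 534 alternative values of the 27 member differences, 505 kept their direction and 29 turned it. Many of the 505 could not turn. The changed filters, the test of each probe by itself and the fit of only the compared groups repeated the main value. So did the mean of probes for genes with 1 probe. FTL differences of exactly 0 were counted as kept. For static 3D minus 2D, SLC40A1 turned to -0.14 with median scaling, -0.062 with the authors' deposited values, -0.0052 with chip as a block, -0.29 with array weights, -0.0053 without static 3D replicate 1 and -0.31 without both arrays that stood apart. With single arrays left out SLC40A1 ran from -0.23 (2D replicate 1) to 0.37, HAMP from -0.54 to 0.44 (2D replicate 3), turning also to 0.039 for static 3D replicate 2, and SLC11A2 from -0.30 to 0.049 (2D replicate 2). For perfused 3D minus 2D, HAMP turned to -0.13 with array weights, -0.12 without 2D replicate 1 and -0.12 without both arrays, and FTL to -0.00012 with the mean of probes and -0.013 with chip as a block. With single arrays left out HAMP ran from -0.34 (perfused replicate 2) to 1.06, and TFRC from -0.47 to 0.26 (perfused replicate 2), turning also to 0.044 for 2D replicate 2. For perfused minus static 3D, TF turned to 0.16 with median scaling, 0.15 with the authors' deposited values, 0.044 with array weights and 0.0033 without both arrays, and CP to 0.75 with chip as a block. With single arrays left out TF ran from -0.30 to 0.26 (static 3D replicate 3), turning also to 0.0031 for static 3D replicate 1 and 0.013 for perfused replicate 2, TFRC from -0.075 (perfused replicate 1) to 0.65, TFR2 from -0.080 (perfused replicate 1) to 0.50 and HAMP from -0.27 (perfused replicate 2) to 1.12. The cause of these turns was not tested. With each array left out in turn, TF ran from 1.22 to 2.04 in static and from 1.20 to 2.03 in perfused 3D against 2D, HPX from 1.08 to 1.88 and from 0.47 to 1.26, and TFR2 from 0.63 to 1.35 and from 0.83 to 1.56.

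Over all genes, static 3D against 2D gave 0 calls, and 1 without both arrays that stood apart. Perfused 3D against 2D gave 1 call, 2 without a filter and without both arrays, and 0 with probes detected on all 8 arrays, with chip as a block and with only the compared groups fitted. Perfused against static 3D gave 1, 2 without a filter, and 0 under the same 3 alternatives. Leaving out single arrays gave 0 to 1 in both perfused comparisons and 0 in the static one. Median scaling moved the median of all genes to -0.129, -0.02 and 0.119 in the order static, perfused and perfused against static, and the iron-sulfur medians to -0.35, -0.10 and 0.31 beside them. It lowered the number of genes that were higher in static 3D from 5532 to 3850 of 11031. Quantile normalisation cannot show a change in FTL, and CP and TFR2 lie near background on 2D replicate 1. With median scaling the FTL differences were -0.12, 0.15 and 0.27 in the order static, perfused and perfused against static. With the authors' deposited values they were -0.055, 0.21 and 0.26. No paired analysis was made because the labels give no replicate numbers or donors per array. If arrays of different formats share a cell preparation, the SEs and overlaps given here include differences between preparations. Neither perfused array was among the 2 that stood apart. Over all genes 2D replicate 1 and static 3D replicate 1 correlated best with each other (r = 0.921). 2D replicate 2 and static 3D replicate 2 did so with perfused replicate 1 (0.976 each) and 2D replicate 3 with perfused replicate 2 (0.968). Static 3D replicate 3 correlated best with an array of its own format, static 3D replicate 2 (0.969). Whether such arrays share cells of a donor was not tested.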

Other observations

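A probe annotated to FTH1P3, a transcribed pseudogene of the ferritin heavy chain gene, was detected on all 8 arrays at 681 to 3398 units. It was picked after its values were seen, and whether it also binds the ferritin heavy chain mRNA was not tested. Red cell markers were near background, with 1 or 2 of 6 detected per array. HBA2, an alpha globin gene, was lowest on both arrays that stood apart, at 6.19 and 6.61, with 7.19 to 8.86 on the other 6. ALAS2, another red cell marker, did not share this, at 7.33 and 7.2 on them and 6.76 to 7.39 on the other 6. H19, a fetal liver transcript, lay at 8.31, 8.34 and 6.64 in 2D, at 14.36, 10.84 and 11.61 in static 3D, and at 11.0 and 8.46 in perfused 3D. Every static array was above every 2D array, and static 3D replicate 1 was the highest of all. AFP, of the same list of hepatoma and fetal liver markers, lay at 9.45 on static 3D replicate 1 and between 8.88 and 10.26 elsewhere. Of the 5 list genes measured, 3 were lower and 2 higher in static 3D than in 2D (median -0.47, from -0.74 to 4.51), and limma called 0.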
